A study of Mus musculus with 5 samples.

Results

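Nuclear-encoded genes of oxidative phosphorylation were followed through 3 progenitor populations of mouse bone marrow. The genes were chosen by symbol, as subunits of the respiratory chain and the ATP synthase (the Nduf, Sdh, Uqcr, Cox4 to Cox8 and Atp5 families), with a minimum of 50 UMIs over all libraries. A UMI, or unique molecular identifier, stands for 1 captured RNA molecule. Of the 55450 genes in the files, 89 carried such a symbol and 84 passed the minimum, 39 of complex I, 4 of complex II, 8 of complex III, 16 of complex IV and 17 of complex V. The 5 left out were Cox7b2 with 0 UMIs, Cox8c with 1, Cox8b and Ndufa4l2 with 2 each, and a second identifier named Atp5o with 2. Just inside the minimum were Ndufa11b with 58 UMIs and Ndufs6b with 118. The annotation calls 80 of the 84 protein coding and 4 processed pseudogenes (Ndufa11b, Ndufs6b, Ndufb4c and Cox6c2), and the values of these 4 are uncertain because near-identical parent genes can share their reads.

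Oxidative phosphorylation turns the energy of NADH and succinate into ATP at the inner mitochondrial membrane. Complex I takes electrons from NADH and complex II from succinate, complex III hands them to cytochrome c, complex IV passes them to oxygen, and complex V, the ATP synthase, uses the resulting proton gradient. Mitochondrial DNA encodes a few core subunits of every complex except complex II, and the nucleus encodes the rest. Stem cells of the marrow are known for a strong reliance on glycolysis, and respiration is known to rise as they differentiate.

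The cells came from wild-type Balb/C mice aged 8 to 12 weeks. Marrow was enriched for c-Kit, the receptor of stem cell factor, and lineage-negative, c-Kit-positive cells were sorted by further surface proteins and run on a droplet platform that counts RNA 3′ ends. LMPP, lymphoid-primed multipotent progenitors, were Sca-1+ CD34+ Flt3+ (1 library). CMP, common myeloid progenitors, were Sca-1- CD34+ and low for CD16/32 (1 library), and GMP, granulocyte-monocyte progenitors, were Sca-1- CD34+ and high for CD16/32 (3 libraries). Whether separate animals gave the 3 GMP libraries is not stated in the sources used here, so p-values measure only the spread between these samples.

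After filtering, 6880 to 9016 cells and 80935805 to 120387525 UMIs remained per library. Median UMIs per cell were 9291 in LMPP, 10115.5 in CMP, and 10721, 12813 and 15147.5 in GMP replicates 1, 2 and 3, so depth rises with the groups compared. Libraries shared 13 to 33 barcodes per pair, at most 0.399% of the smaller library. Summed markers of the granulo-monocytic lineage (Mpo, Elane, Prtn3, Ctsg, Prss57 and Ms4a3, all 6 detected in every library) came to 31903 to 35683 CPM in GMP, 3767 in CMP and 2718 in LMPP. Summed erythroid markers (8 of 8 detected) came to 535 in CMP, 536 in LMPP and 39.8 to 53.0 in GMP. Summed neutrophil markers came to 2190 in LMPP, where 83 cells were neutrophil-like, 42.5 in CMP and 405 to 490 in GMP, and their part in the comparisons with LMPP was not tested. GMP replicate 1 stood apart, with mitochondrially encoded transcripts at 0.698% of its UMIs against 1.10% and 1.21% in the other GMP libraries, and 3 of the cell clusters described below consisted mostly of its cells.

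The share of each library's UMIs taken by the 84 genes was 2.28% in LMPP, 2.82% in CMP and 4.02%, 3.80% and 3.65% in the GMP libraries (3.82% ± 0.187, SD, n = 3). All 3 GMP libraries lay above CMP, and CMP lay above LMPP. Complex IV went from 0.627% in LMPP and 0.789% in CMP to 1.13% ± 0.0568 in GMP, and complex III from 0.251% and 0.307% to 0.434% ± 0.0256. Complex I took 0.743%, 0.883% and 1.18% ± 0.0728, and complex V took 0.627%, 0.798% and 1.04% ± 0.0325, in the same order. Complex II, succinate dehydrogenase, was the exception on this scale. It took 0.0337% in LMPP, 0.0458% in CMP and 0.0437% ± 0.000624 in GMP, so GMP stood below CMP. With 3 libraries against 1, no exact test of these sums can fall under 0.25, and none was run.

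**Figure D1:**
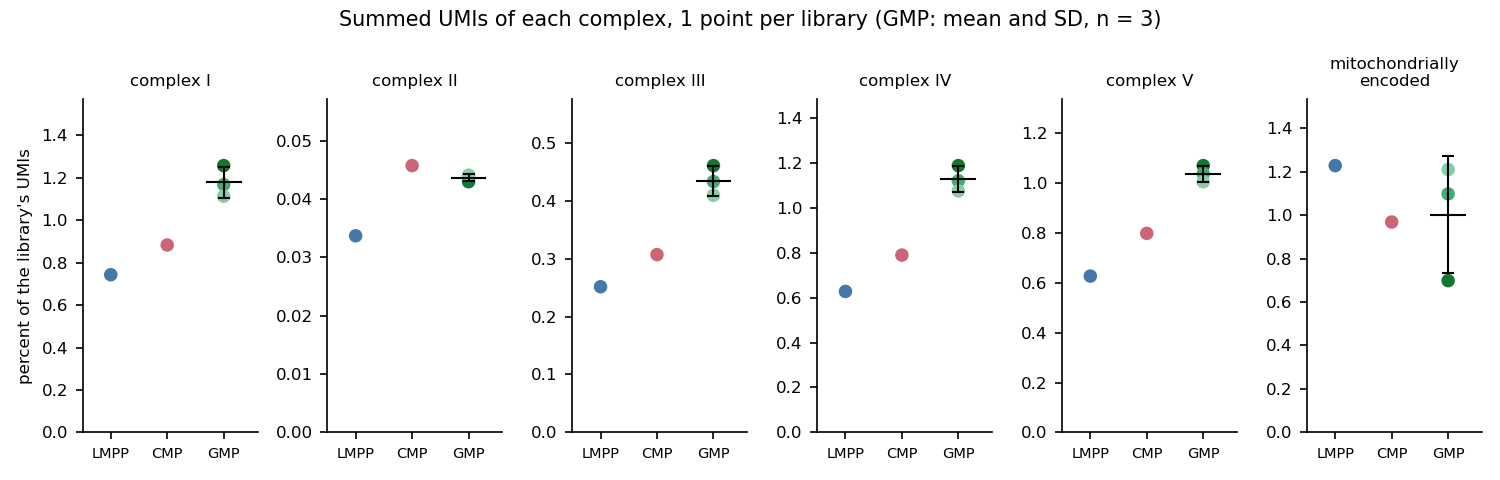
Summed UMIs of each complex and of the mitochondrially encoded subunits, as percent of the library's UMIs (vertical axes start at 0), 1 point per library, with the mean and SD of the 3 GMP libraries. Complexes I, III, IV and V stand in the order LMPP, CMP, GMP, complex II does not, and GMP replicate 1 is the low point (0.698%) among the mitochondrially encoded sums.

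The subunits encoded by mitochondrial DNA did not follow this order. Their share was 1.23% in LMPP, 0.968% in CMP and 1.0% ± 0.269 in GMP, a range that covers CMP. The ratio of nuclear-encoded to mitochondrially encoded UMIs was 1.86 in LMPP, 2.92 in CMP, and 5.75, 3.46 and 3.01 in GMP replicates 1, 2 and 3. Replicate 1 set the upper end, and replicate 3 lay close to CMP. Capture of mitochondrial transcripts by 3′ chemistry is uneven between genes, and the part of RNA quality in these values was not tested. Within cells of like depth the order of the nuclear-encoded share was the same for cells of 5000 to 10000 UMIs (2.18% in LMPP, 2.67% in CMP, 3.36% to 4.12% in GMP). It was also the same at 10000 to 20000 UMIs (2.25%, 2.83% and 3.68% to 3.98%) and at 20000 to 40000 UMIs (2.44%, 2.97% and 3.65% to 4.02%). Below this, at 2500 to 5000 UMIs, GMP replicate 3 (2.62%) lay under CMP (2.72%).

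The first comparison asked which subunits set GMP apart from CMP. The sums of UMIs in each library entered edgeR's quasi-likelihood test, run over all 19749 genes that passed a low-count filter, with Benjamini-Hochberg adjustment at 0.05. The lone CMP and LMPP libraries were assumed to vary like the GMP libraries, which left 2 residual degrees of freedom and a common biological coefficient of variation of 13.34%. All 84 genes were tested. Of these, 58 were higher in GMP and 1 was lower, against 13.6% of all genes higher and 19% lower. The median log2 difference of the 84 was 0.66, and that of all genes was -0.04. Values per gene are UMI counts scaled to the library total as CPM on the TMM scale of edgeR, called normalized CPM, and log2 differences are given with their standard error. In bulk sums of this kind, fewer cells of a type and less RNA per cell cannot be told apart.

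**Figure D2:**
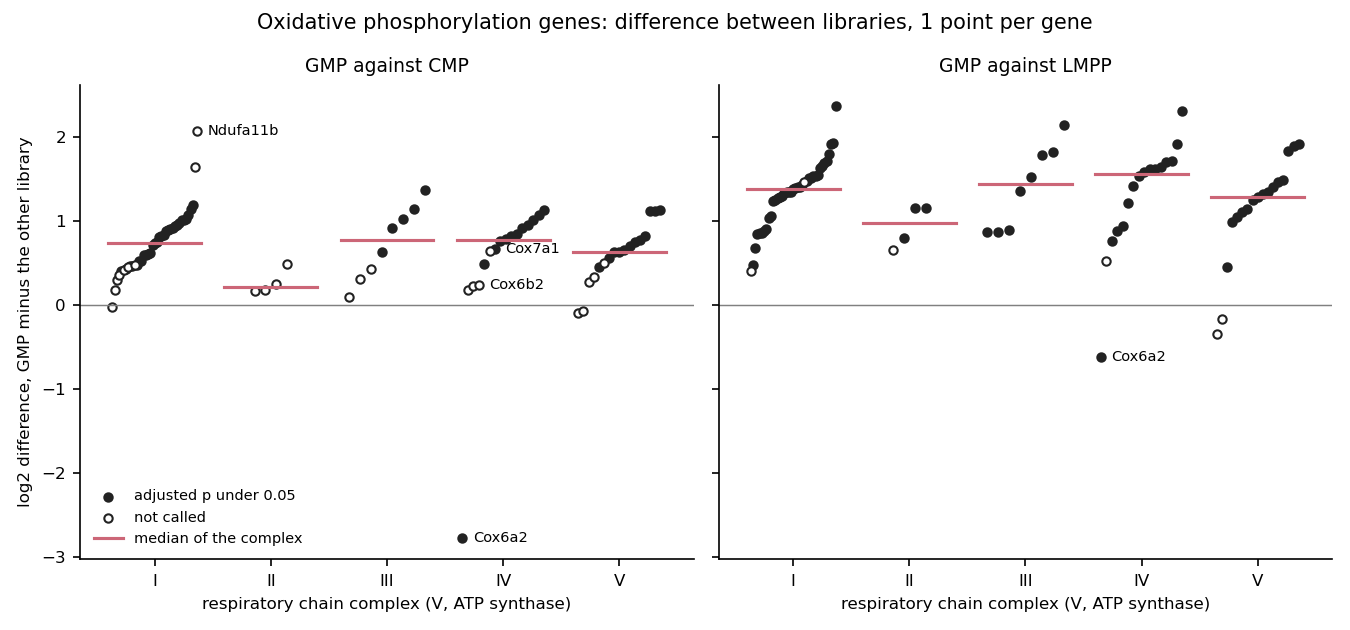
Log2 difference of every gene, GMP minus CMP (left) and GMP minus LMPP (right), by complex; filled points have an adjusted p under 0.05 (edgeR), open points do not, and red bars are the median of the complex. Most points lie above 0 in both panels, and Cox6a2 is the filled point below 0 (-2.77 against CMP, -0.62 against LMPP).

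Complex I rose most widely, with 30 of 39 genes higher, none lower and a median of 0.74. Ndufs6, an accessory subunit of the peripheral arm, had 114 normalized CPM in LMPP, 189.6 in CMP and 440.3, 444 and 412 in the GMP libraries. The 3 GMP values lay far above both other libraries and close to each other, and the log2 difference from CMP was 1.19 ± 0.14 (adjusted p = 0.000679, edgeR). Ndufc1, an accessory subunit of the membrane arm, went from 148 in LMPP and 186 in CMP to 446, 408 and 379.5, a log2 difference of 1.14 ± 0.15 from CMP. Both are small proteins without a redox centre. Ndufb11, a membrane-arm subunit, rose by 0.81 ± 0.19, from 369 in CMP to 754, 616 and 574. Ndufa4, which carries a complex I symbol but is known as a subunit of complex IV, had 984 in LMPP, 1133 in CMP and 1624, 1635 and 1439 in GMP. Its log2 difference of 0.47 ± 0.16 missed the threshold (adjusted p = 0.0557).

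The complex I genes that did not pass included Ndufa4, Ndufa6, Ndufa7, Ndufb4, Ndufs1 and the pseudogenes Ndufa11b, Ndufs6b and Ndufb4c. The 7 core subunits, most of which carry the flavin, the iron-sulfur clusters or the quinone site, had a median difference of 0.46 with 5 higher. The other 31 genes, accessory subunits and the 3 pseudogenes, had a median of 0.81 with 25 higher. This grouping was made after the values were seen. The lowest of the core was Ndufs1, the largest subunit and holder of several iron-sulfur clusters, at 0.17 ± 0.13.

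None of the 4 complex II genes passed, and their median was 0.21. Sdha, the flavoprotein with the catalytic site, had 60.6 normalized CPM in LMPP, 93.6 in CMP and 94.8, 107 and 113 in GMP (log2 difference from CMP 0.17 ± 0.14, adjusted p = 0.407). Sdhb, the iron-sulfur subunit, had 108, 203, 290.1, 227 and 203 in the same order, so the lowest GMP library stood level with CMP (0.24 ± 0.20, adjusted p = 0.392). Sdhc, a membrane anchor, differed by 0.18 ± 0.13 (adjusted p = 0.347). Sdhd, the other anchor, had 45.6 in CMP and 38.7, 74.3 and 78.5 in GMP, so that replicate 1 lay below CMP and the other GMP libraries above it (0.49 ± 0.35, adjusted p = 0.328). Without GMP replicate 1, Sdhd (0.76) and Sdha (0.25) passed the threshold.

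In complex III 5 of 8 genes were higher. Uqcrq, a small subunit beside cytochrome b, had 191 in LMPP, 326 in CMP and 907, 851 and 758 in GMP. Its log2 difference of 1.36 ± 0.17 from CMP was the largest among the genes called higher. Uqcr11 rose by 1.14 ± 0.19, from 437 in CMP to 1117, 923 and 855. The hinge protein gene Uqcrh, abundant in all libraries, had 775 in CMP and 1167, 1012 and 935 in GMP and missed the threshold (0.42 ± 0.17, adjusted p = 0.097), as did the core protein gene Uqcrc2 (0.09 ± 0.12) and the Rieske protein gene Uqcrfs1 (0.31 ± 0.13).

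Complex IV, cytochrome c oxidase, had 11 of 16 genes higher and 1 lower. Cox4i1, the common form of the regulatory subunit 4, had 659 in LMPP, 1069 in CMP and 2208, 2016 and 1948 in GMP (log2 difference 0.95 ± 0.16, adjusted p = 0.00378). Cox7a2 rose by 1.13 ± 0.18, from 459 in CMP to 1138, 976 and 889.5. Cox8a, with the highest mean level of the complex, rose by 0.75 ± 0.19, from 1406 in CMP to 2714, 2279 and 2111. Cox6a1 and Cox6b1 rose by 0.85 ± 0.14 and 0.92 ± 0.19. The UMIs of the gene called lower lay, in CMP, mainly in cell classes with few GMP cells, as given below. This gene was Cox6a2, known as the heart and muscle form of subunit 6a. It had 5.29 normalized CPM in LMPP, 23.5 in CMP and 4.19, 3.27 and 2.90 in GMP, and the difference of -2.77 ± 0.20 (adjusted p = 6.94e-05) was larger in size than that of any other of the 84. Of the other tissue-restricted forms, Cox7a1 (2.81 in CMP and 4.94, 4.13 and 4.29 in GMP) only just passed, at 0.66 ± 0.21 (adjusted p = 0.0486), and lost the call under several alternatives. Cox4i2 (0.22 ± 0.18), Cox6b2 (0.23 ± 0.15), the pseudogene Cox6c2 (0.63 ± 0.55) and the supercomplex assembly factor Cox7a2l (0.18 ± 0.21) did not pass.

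In complex V 12 of 17 genes were higher. Atp5o, which encodes the stalk subunit that confers sensitivity to oligomycin, rose by 1.12 ± 0.15, from 258 in LMPP and 419 in CMP to 953, 935 and 853. Atp5g1, 1 of the genes for the ring subunit c, rose by 1.12 ± 0.19, from 506 in CMP to 1254, 1065 and 969.8, whereas Atp5g2, another gene for the same protein, stood at 27.5 in CMP and 26, 23.9 and 28.3 in GMP (-0.08 ± 0.15). Atp5e, the most abundant of the complex, and Atp5h rose by 0.70 ± 0.19 and 0.81 ± 0.15. The catalytic head genes Atp5b (0.27 ± 0.14) and Atp5a1 (0.33 ± 0.15) did not pass, nor did Atp5d and Atp5s (-0.09 ± 0.15), the gene of the coupling factor B.

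Against CMP, small subunits showed larger differences than large ones. Among the 80 protein-coding members, the 46 with a coding length under 450 bases had a median log2 difference of 0.77, and the 11 of 900 bases or more had 0.33. Over all genes with a coding length the medians were 0.34 for 1053 short genes and -0.09 for 10001 long ones, so length moved with the difference outside the group too. Against LMPP the medians of the same short and long members were close, at 1.40 and 1.29. The correlation with log2 coding length was -0.24 over the 80 genes and -0.07 over 13897 genes, given as a description across genes that share the same libraries. Its part in the result was not tested.

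The calls depended on scale and on 1 library. Scaling by total UMIs in place of TMM moved the median of all genes to -0.35 and left 32 of the 84 higher, with Cox6a2 still lower, while over all genes the split changed from 2677 higher and 3753 lower to 1447 and 5996. Without GMP replicate 2, 39 were higher, and among cells of 5000 to 10000 UMIs in every library 29 were. For these last fits the share of all genes higher is not given here, so the counts have no base to be read against.

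To give sequence beside these values, promoters were read from RefSeq on GRCm38.p6, from 250 bases before to 50 after each start, for the 64 of 84 genes with an entry. Those without one included Atp5a1, Atp5f1, Atp5mpl, Atp5s, Cox4i1, Cox4i2, Cox6a2, Cox6c, Cox6c2, Ndufa11b, Ndufa2, Ndufb4c, Ndufb9, Ndufs1, Ndufs6b, Sdhc, Uqcrb, Uqcrc2 and Uqcrq. The letters of 3 regulators known for respiratory chain promoters were searched on both strands, allowing no mismatch: a palindrome of 10 letters for NRF1, CCGGAAG for the ETS family with GABP, and a run of 11 letters for YY1. The capitals in the sites printed below spell out the NRF1 and YY1 letters, and no motif contains another. A match is a run of letters and no evidence of binding. These promoters are rich in CG dinucleotides, with a median of 14 against 6 over 27025 genes, and all 3 motifs hold CG.

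The NRF1 letters stood in 5 of 64 promoters (7.81%) and in 1.07% of all promoters of that length. The sites are shown with 10 bases on each side because they let genes that rose be set beside one that did not; capitals mark the motif, read on the strand of the gene.
Atp5k: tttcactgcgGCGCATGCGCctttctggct
Ndufa11: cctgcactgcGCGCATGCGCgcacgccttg
Uqcrc1: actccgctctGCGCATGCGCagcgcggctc
Atp5g2: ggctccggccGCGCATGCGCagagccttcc
They lie at chr5:108434430-108434459 (- strand), chr17:56717692-56717721 (+), chr9:108936668-108936697 (+) and chr15:102671070-102671099 (-). Atp5k, a membrane subunit of the ATP synthase, rose by 1.12 ± 0.18, Ndufa11, an accessory subunit of complex I, by 1.0 ± 0.19, and Uqcrc1, a core protein of complex III, by 0.63 ± 0.13. Atp5g2, with the same 10 letters just upstream of its start, did not pass.

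The fifth promoter with these letters is that of Cox6a1, printed at greater length because Cox6a1 is the common partner of Cox6a2 (chr5:115348982-115349129, - strand, upstream of the first base of the gene in GENCODE; capitals mark the motif, which begins 162 bases before the RefSeq start). The stretch ends before that start, and the promoter also holds ETS letters at 16 bases before it, outside what is printed.
Cox6a1: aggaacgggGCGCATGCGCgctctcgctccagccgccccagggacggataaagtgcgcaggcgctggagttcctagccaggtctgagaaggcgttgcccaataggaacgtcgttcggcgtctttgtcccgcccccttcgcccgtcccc
Cox6a1 was higher in GMP than in CMP, the opposite of Cox6a2, for which no promoter is shown.

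The ETS letters stood in 16 of 64 promoters (25%) against 9.93% of all, and 13 of the 16 belong to genes that rose. Examples from 4 complexes that rose are set beside Sdhd of complex II, which did not pass; capitals mark CCGGAAG or its reverse complement CTTCCGG.
Uqcr11: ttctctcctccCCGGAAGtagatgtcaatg
Ndufb7: gcctagatgacCCGGAAGacactgaagggg
Cox6b1: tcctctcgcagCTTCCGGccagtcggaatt
Atp5h: caaggagagaaCTTCCGGcaactctcttcc
Sdhd: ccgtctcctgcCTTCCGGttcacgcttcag
These windows are chr10:80406869-80406898 (-), chr8:83566727-83566756 (+), chr7:30626124-30626153 (-), chr11:115419939-115419968 (-) and chr9:50603877-50603906 (-). Of the 64 genes with a promoter, 50 rose, so the 13 of 16 can be read beside 50 of 64.

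The YY1 letters stood in 4 of 64 promoters (6.25%) against 0.755% of all. All 4 belong to complex I, which has 39 of the 84 genes, and stand downstream of the start. All 4 genes rose, a count to be read beside 50 of the 64 genes with a promoter. Capitals mark the motif.
Ndufs6: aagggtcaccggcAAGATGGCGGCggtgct
Ndufs7: gccgaggccAAGATGGCGGCgctggcgggt
Ndufs4: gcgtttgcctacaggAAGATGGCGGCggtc
Ndufa9: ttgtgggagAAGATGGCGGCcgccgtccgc
They lie at chr13:73328433-73328462 (-), chr10:80249464-80249493 (+), chr13:114388045-114388074 (-) and chr6:126849095-126849124 (-). Ndufs6 and Ndufs7, which holds an iron-sulfur cluster, rose by 1.19 ± 0.14 and 0.88 ± 0.14, and Ndufs4 and Ndufa9, accessory subunits, by 0.48 ± 0.13 and 0.46 ± 0.13.

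Transcripts of regulators of the pathway were counted in the same test. Of 13 coactivators, transcription factors and mitochondrial transcription proteins, none was higher in GMP than in CMP and 2 were lower, counts so small that they cannot be set apart from the 13.6% and 19% of all genes. Gabpb1, the partner of the ETS factor GABPA, had 22.5 normalized CPM in CMP and 12.4, 13.6 and 13.6 in GMP (-0.76 ± 0.13, adjusted p = 0.00409). Ppargc1a, the coactivator PGC-1α, also passed as lower (-2.10 ± 0.58), at no more than 0.193 in CMP and 0.0563 in GMP. Nrf1 (-0.31 ± 0.13), Gabpa (0.14 ± 0.17), Yy1 (-0.36 ± 0.14), Tfam (0.01 ± 0.14) and Myc (-0.18 ± 0.16) did not pass.

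Other genes of the pathway, from lists outside the symbol rule, were counted likewise, beside 13.6% of all genes higher and 19% lower. Among 8 electron carriers and further subunits 6 were higher and none lower, led by Cycs, cytochrome c (189 in CMP and 436, 530.5 and 485 in GMP, 1.36 ± 0.17), and Etfb, a subunit of the electron transfer flavoprotein (1.33 ± 0.18). Of 48 assembly factors tested 21 were higher and none lower, with a median of 0.43. Taco1, a translational activator of mitochondrial Cox1 (1.0 ± 0.17), and Ndufaf3, a complex I factor (0.91 ± 0.15), were among them. Of the 13 mitochondrially encoded subunits 2 were higher, mt-Nd5 (0.85 ± 0.15) and mt-Atp8 (1.16 ± 0.21), a share near that of all genes. In the same comparison 7 of 20 S phase genes and 8 of 20 G2M phase genes were higher, and none of either list was lower. As plain shares of UMIs the cycle sums were close. S phase genes took 0.191% in CMP and 0.185% ± 0.00933 in GMP, and G2M phase genes 0.175% and 0.181% ± 0.0160 (SD, n = 3). The part of cell cycle activity in the subunit differences was not tested.

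The comparison with LMPP used the same GMP libraries, so it is not independent of that with CMP. Here 77 of the 84 were higher and 1 lower, against 25.8% and 31.4% of all genes, with a median of 1.34 against -0.10. Complex III had 8 of 8 higher, complex I 37 of 39, complex V 15 of 17, complex IV 14 of 16 and complex II 3 of 4, with Sdhd as the exception. The largest differences among protein-coding genes were led by Uqcrq (2.14 ± 0.18, adjusted p = 6.56e-05). The pseudogenes Ndufs6b (2.36 ± 0.70) and Cox6c2 (2.3 ± 0.64) had larger fitted values from few UMIs. Ndufs6b had 7 UMIs in LMPP, 9 in CMP and 41, 26 and 25 in GMP, so it met the minimum of 50 only through GMP, where it is high, and its call supports nothing. The same holds for Ndufa11b, which was not called. Cox6a2 was lower by the test (-0.62 ± 0.21, adjusted p = 0.0382), and its 3 GMP values all lay under the LMPP value of 5.29. That call was lost with DESeq2, without GMP replicate 2 or 3 and under further alternatives (-0.49 to -0.66). Genes that passed neither comparison were Atp5s, Atp5g2, Ndufb4, Cox7a2l, Sdhd and Ndufa11b. The size of the differences from LMPP depends on scale too. Scaling by total UMIs in place of TMM moved the median of all genes from -0.10 to -0.72. As a plain share of UMIs, the summed members in GMP stood at 1.67 times the LMPP value.

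CMP and LMPP have 1 library each, so their ratio is given without a test, with an exact 95% interval that covers counting error only. At a limit of 1.5-fold on the TMM scale 51 of 84 genes were higher in CMP and 1 was lower, against 19.8% and 27.1% of all genes. By complex 22 of 39 in I, 3 of 4 in II, 5 of 8 in III, 10 of 16 in IV and 11 of 17 in V were past the limit. The highest ratio was that of Cox6a2, 4.44 (4.05 to 4.87), from 603 UMIs in LMPP and 2071 in CMP. The pseudogenes Cox6c2 (3.2, 1.84 to 5.77) and Ndufb4c (2.95, 2.37 to 3.68) came next. At the low end were the pseudogene Ndufa11b with 3 UMIs against 6 (0.647, 0.105 to 3.03), Atp5s (0.841, 0.775 to 0.912) and Atp5l, a membrane subunit of the ATP synthase (0.879, 0.859 to 0.900). Under total UMI scaling 12 genes were past the limit upward, and the share of all genes past it on that scale is not given here.

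Cells were then grouped by clusters to ask how the subunits vary between lineages. Clusters were made without the 84 genes, the mitochondrial genes and the other genes of the pathway, and named from marker genes. Within GMP, 5 classes had at least 50 cells in each library: granulo-monocytic-like, monocyte-like, neutrophil-like, basophil and mast cell-like, and eosinophil-like. Another 2500, 1634 and 1162 cells of replicates 1, 2 and 3 lay in unnamed clusters and entered no class. The share of class UMIs taken by the members was 3.94% ± 0.211 in granulo-monocytic-like cells, 3.89% ± 0.115 in neutrophil-like cells and 3.83% ± 0.100 in monocyte-like cells (SD, n = 3 each). The ranges of these 3 classes overlap, but within each library the order against monocyte-like cells was the same. In replicates 1, 2 and 3 the share was 4.16%, 3.93% and 3.74% in granulo-monocytic-like, 3.98%, 3.92% and 3.76% in neutrophil-like and 3.89%, 3.89% and 3.72% in monocyte-like cells, the lowest of the 3 each time. By cluster the order was mixed. With few G2M transcripts, 1 granulo-monocytic-like cluster (3.82%, 3.89% and 3.72%) lay below the monocyte-like one (3.92%, 3.91% and 3.73%). With more of them, the granulo-monocytic-like cluster lay above the monocyte-like one (4.18%, 3.95% and 3.75% against 3.84%, 3.89% and 3.71%). In replicate 1, 1380 of 3062 granulo-monocytic-like cells lay in a further cluster mostly of that replicate. That cluster also had few G2M transcripts (0.0679% of UMIs in replicate 1 and 0.0917% in replicate 2). Its share, 4.46% in replicate 1 and 4.32% in replicate 2 (91 cells), lay above both monocyte-like clusters. These sums were not tested. The members' share was 3.29% ± 0.278 in eosinophil-like and 3.06% ± 0.140 in basophil and mast cell-like cells. In each library the 2 last classes lay below the other 3. They also have the shallowest cells, with medians of 4041 to 5517 and 5222 to 6529.5 UMIs against 10382.5 to 15436 in the granulo-monocytic-like class.

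**Figure D3:**
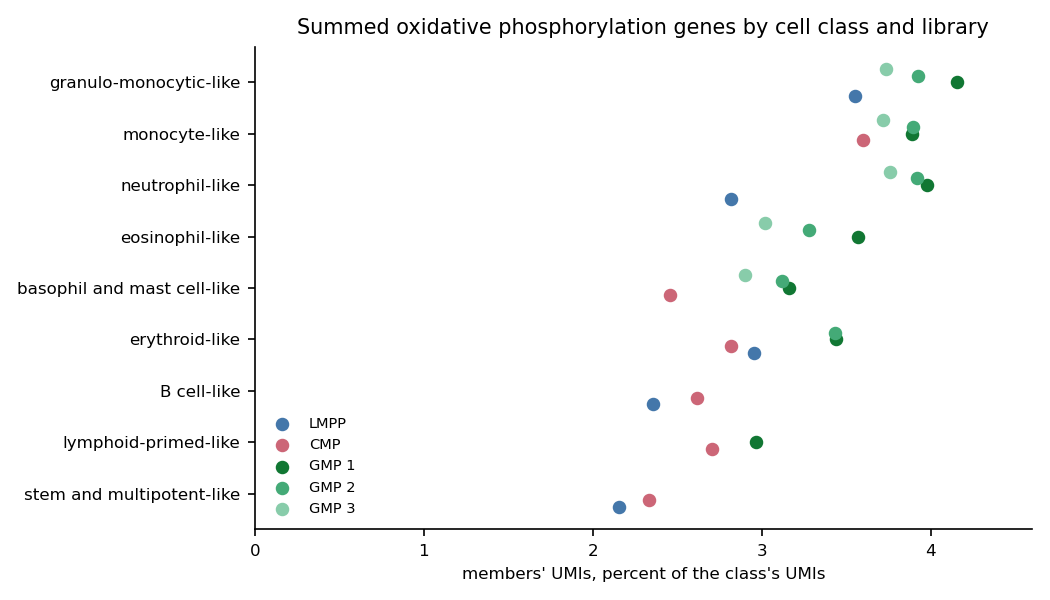
Percent of a class's UMIs taken by the 84 genes (horizontal axis from 0), by cell class (rows), 1 point per library with at least 50 cells of the class. GMP points of the granulo-monocytic-like, monocyte-like and neutrophil-like classes lie from 3.72% to 4.16%, and the stem and multipotent-like class of LMPP is the lowest point at 2.16%.

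Between classes of GMP the genes were tested with edgeR on UMIs summed per library and class, with the library as a block (8 residual degrees of freedom, 81 of the 84 genes and 11039 genes in all). In basophil and mast cell-like cells 76 of 81 genes were lower than in granulo-monocytic-like cells and none was higher, against 30.5% and 33.8% of all genes. The median was -0.58. Atp5g1 had 1331, 1118 and 1009 normalized CPM in granulo-monocytic-like cells of replicates 1, 2 and 3, and 648, 572 and 511 in basophil and mast cell-like cells, a log2 difference of -1.0 ± 0.06 (adjusted p = 4.74e-22). No library overlapped. Cox6a2 (-1.49 ± 0.40) and the pseudogene Ndufb4c (-1.21 ± 0.36) had larger differences at levels under 5 normalized CPM, and the call for Ndufb4c was lost without GMP replicate 1. The 5 genes not called were Ndufs1, Sdha, Cox7a2l, Cox6b2 and Cox4i2.

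Eosinophil-like cells gave a like picture, with 72 of 81 lower and 1 higher against 22% and 24.3% of all genes, and a median of -0.64. Atp5g1 (-1.13 ± 0.07), Cox7b of complex IV (-1.01 ± 0.06) and Uqcrb of complex III (-0.92 ± 0.07) had the largest differences past the threshold. The gene that was higher was Sdha (0.54 ± 0.09, adjusted p = 1.15e-06). In both these comparisons short genes were lower among all genes as well, at medians of -0.33 and -0.56 for the 762 genes with under 450 coding bases against 0.12 and 0.25 for the 7187 of 900 bases or more. Among the members the medians were -0.63 and -0.65 for 46 short genes and -0.29 and -0.34 for 11 long ones. Depth and length move with these differences, and their part was not tested. With only cells of 5000 to 10000 UMIs, 69 members were lower in the basophil and mast cell-like class. The share of all genes lower in that fit is not given here, so this count has no base to be read against.

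**Figure D4:**
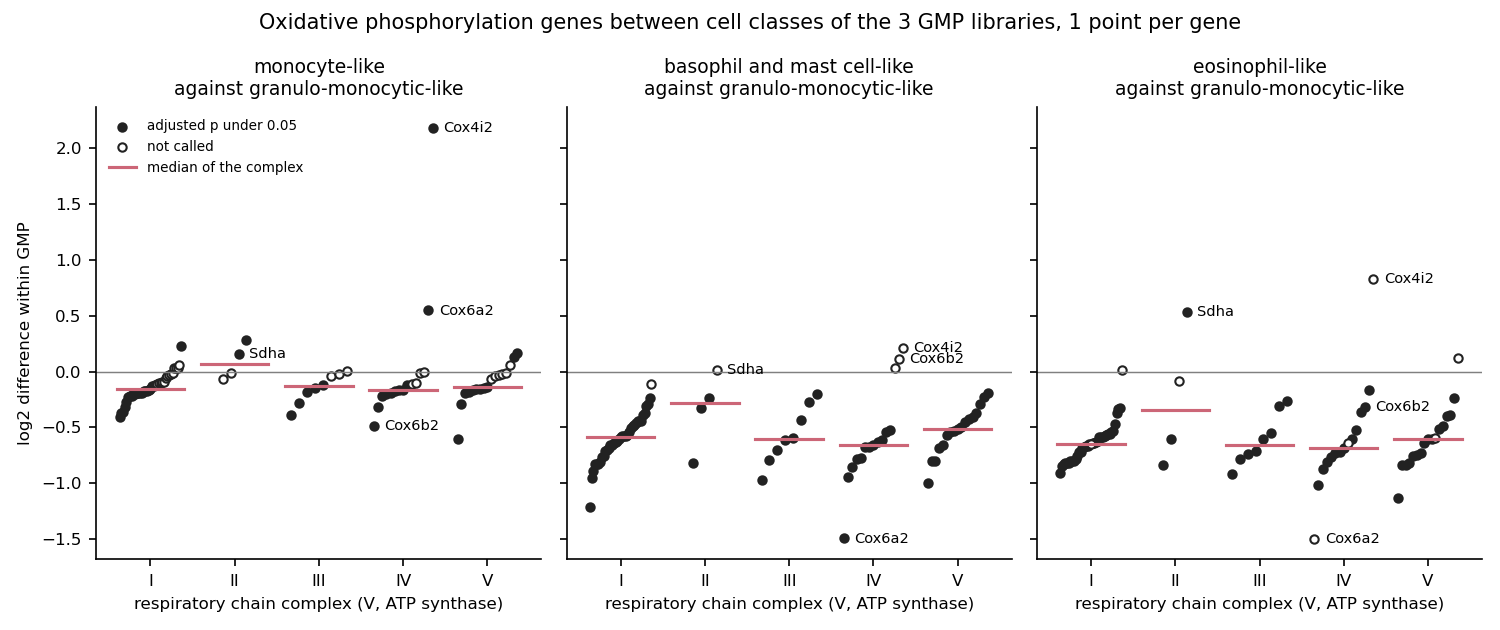
Log2 difference of each gene between a GMP class and the granulo-monocytic-like class, by complex; filled points have an adjusted p under 0.05 (edgeR with library as a block), open points do not, and red bars are the median of the complex. Most points lie below 0 for the basophil and mast cell-like and eosinophil-like classes, and Cox4i2 stands alone at 2.18 for the monocyte-like class.

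The monocyte-like class differed less. Against granulo-monocytic-like cells 45 of 81 genes were lower and 7 higher, against 23.3% and 25.7% of all genes, and the median was -0.13. Scaled by total UMIs the split was 15 higher and 18 lower, while all genes went from 2836 higher and 2572 lower to 4260 and 1445. Those that were higher included Cox4i2, Cox6a2, Sdhb, Atp5a1, Sdha and Atp5b. Cox4i2, known as the form of subunit 4 that is induced by low oxygen in lung, had 10.9, 8.89 and 8.55 normalized CPM in monocyte-like cells of replicates 1, 2 and 3 and 2.14, 2.32 and 1.71 in granulo-monocytic-like cells. The classes did not overlap, and the log2 difference was 2.18 ± 0.11 (adjusted p = 8.71e-26). Cox6a2 (0.55 ± 0.13) and Sdhb (0.28 ± 0.05) followed. The lowest were Atp5s (-0.60 ± 0.07), Cox6b2 (-0.48 ± 0.05) and Ndufa4 (-0.40 ± 0.06). Complex II had no gene lower and 2 higher, and took 0.0482% ± 0.00143 of UMIs in monocyte-like against 0.0404% ± 0.000676 in granulo-monocytic-like cells. Cycle genes moved with this comparison, with 17 of 20 G2M genes and 10 of 20 S phase genes higher in the monocyte-like class. When cycle genes were left out of the clustering, 9 members were lower in place of 45, and without the library block 6 were. Shares of all genes lower in these alternative fits are not given here, so the counts have no base to be read against.

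CMP was divided mainly into a lymphoid-primed-like class of 3334 cells, led by the early response genes Nr4a1 and Socs3 and by Cdkn1a, and an erythroid-like class of 1899 cells, with 725 cells in unnamed clusters. The erythroid-like cluster was led by Pf4, a megakaryocyte marker, and raised 5 megakaryocyte markers beside 6 erythroid ones. A separate megakaryocyte-like class appeared with cycle genes left out of the clustering (373 CMP cells) and at Leiden resolution 2 (509 CMP cells). Values of the erythroid-like class can therefore mix both lineages. The members took 3.60% of UMIs in the 192 monocyte-like cells of CMP (95% interval 3.58% to 3.62%, counting error only), 2.82% in erythroid-like, 2.70% in lymphoid-primed-like, 2.62% in the 489 B cell-like, 2.46% in the 171 basophil and mast cell-like and 2.34% in the 56 stem and multipotent-like cells. The monocyte-like class thus lay nearest to GMP, and the basophil and mast cell-like class stood below it in CMP as in GMP. In LMPP the stem and multipotent-like class, 6626 of 7511 cells, took 2.16%, the B cell-like class 2.36%, the erythroid-like class 2.96% and the 112 granulo-monocytic-like cells 3.55%.

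A last comparison of GMP with CMP took only monocyte-like cells, a class that has 1894, 3120 and 2932 cells in the GMP libraries. None of 83 members passed in either direction, against 0.407% of all genes higher and 0.249% lower (edgeR, 2 residual degrees of freedom). At an unadjusted p under 0.05 there were 12 members by edgeR and 9 by DESeq2, which also called none. The share of all genes at that unadjusted cut is not given here, so these counts have no base to be read against. The median difference was 0.12. Ndufs6 had 265 normalized CPM in CMP and 368, 412 and 373 in GMP (0.54 ± 0.14, adjusted p = 0.203). For Uqcrq the values were 573 against 731, 809.9 and 703 (0.38 ± 0.15, adjusted p = 0.364), so the GMP libraries again lay above CMP. Sdha, at 101 against 98.5, 100.3 and 107, overlapped. Most CMP cells of this class (153) lay in 1 of its 2 clusters, whereas GMP cells were spread over both. Without GMP replicate 1, 7 members were higher and 1 lower, and with the basophil and mast cell-like class in its place 6 were higher. Shares of all genes in those fits are not given here, so their counts have no base either. Whether the difference between GMP and CMP is smaller within this class than over whole libraries was not tested.

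The alternative forms of complex IV subunits had their own patterns by class, given here as plain CPM, without TMM scaling. For Cox6a2 (chr7:128205435-128206387, - strand) the CMP value of the B cell-like class was 186, beside 18.8 in lymphoid-primed-like, 10.7 in stem and multipotent-like (4 UMIs), 6.31 in monocyte-like, 2.72 in basophil and mast cell-like and 2.40 in erythroid-like cells. B cell-like cells were 7.11% of CMP cells and held 1055 of its 2071 Cox6a2 UMIs, and the other cells of CMP together had 13.5 CPM. In LMPP the B cell-like class had 76.7 and the stem and multipotent-like class 3.2, and B cell-like cells held 323 of 603 UMIs. GMP classes ranged from 0.975 ± 0.411 in basophil and mast cell-like to 3.41 ± 0.325 in monocyte-like cells. Lymphoid-primed-like cells held another 633 of the CMP UMIs, and the 725 CMP cells of unnamed clusters held 297, at 22.6 CPM. GMP has many cells in unnamed clusters as well. In unnamed cells Cox6a2 made up 6.42% of the UMIs of Cox6a2 and Cox6a1 in CMP. The same share was 1.30%, 0.911% and 0.849% in GMP replicates 1, 2 and 3. GMP replicates 1, 2 and 3 had 4, 4 and 6 B cell-like and 69, 41 and 12 lymphoid-primed-like cells, against 489 and 3334 in CMP. Within monocyte-like cells, normalized CPM of Cox6a2 was 6.07 in CMP and 3.63, 3.69 and 3.04 in GMP. The part of cell composition in the difference between whole libraries was not tested. The B cell-like cluster was led by Dntt, Ebf1 and Il7r, early lymphoid genes, and raised 5 of the B cell markers but also 7 lymphoid-primed markers. Its name depends on the clustering: at Leiden resolution 2 (460 CMP cells) and with doublets kept (471 CMP cells) the cluster led by Dntt and Ebf1 took the lymphoid-primed-like name, and no CMP class was B cell-like.

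With every cell thinned to 2000 UMIs, Cox6a2 was seen in 24.4% of CMP B cell-like cells (exact interval 20.6% to 28.5%, 480 of 489 cells deep enough) and in 14.0% of those of LMPP (10.1% to 18.8%, 264 of 266 cells). Unthinned, the shares were 59.7% and 50%, at medians of 10185 and 13988 UMIs. In CMP erythroid-like cells of like depth (median 10236) they were 0.584% thinned and 2.74% unthinned. The part of free RNA in the droplets in levels this low, here and in the GMP classes, was not tested. Relative to Cox6a1, Cox6a2 made up 7.98% of the UMIs of the pair in CMP, 3.92% in LMPP and 0.870%, 0.629% and 0.618% in GMP. Cox6a2 overlaps exons of Itgad on the other strand, and how the counting used strand is not given in the sources used here. Itgad itself had 0.136 CPM in CMP and 0.344 in LMPP, and 4 UMIs in the CMP B cell-like class against the 1055 of Cox6a2.

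**Figure D5:**
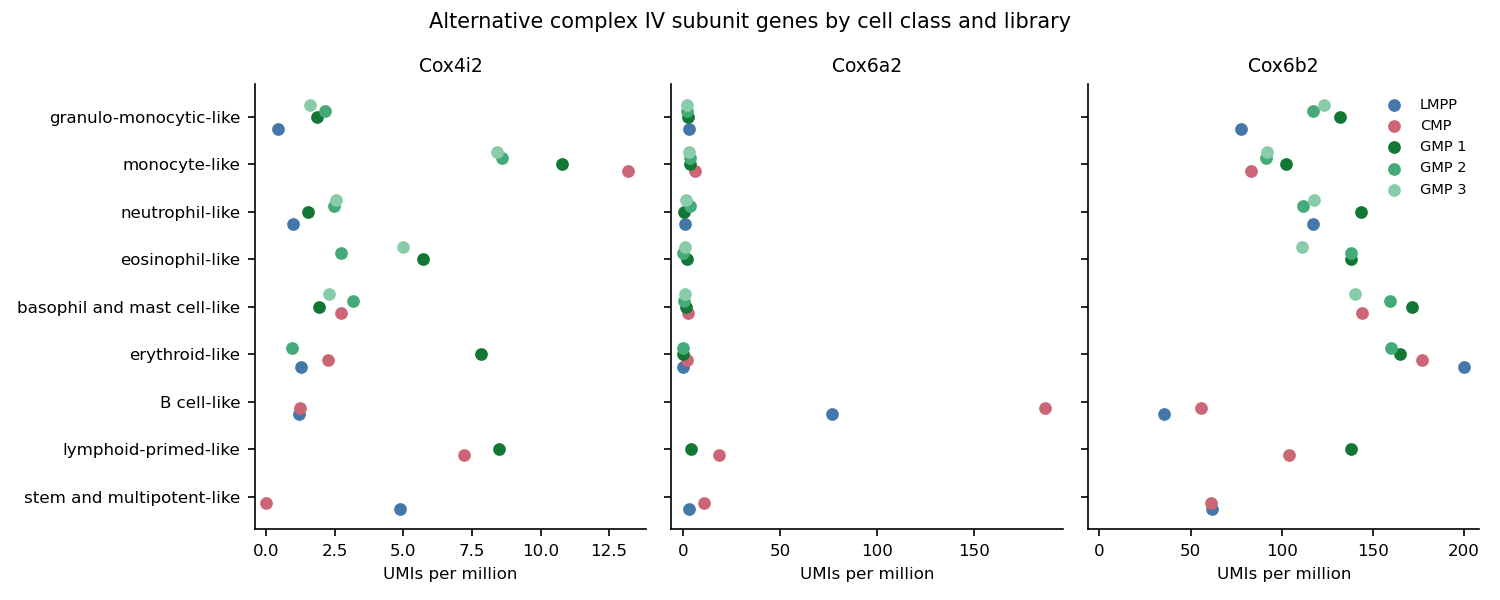
CPM of Cox4i2, Cox6a2 and Cox6b2 (each panel with its own scale from 0) by cell class, 1 point per library with at least 50 cells of the class. Cox6a2 is highest in the B cell-like class (186 in CMP, 76.7 in LMPP), Cox4i2 in the monocyte-like class of CMP and GMP, and Cox6b2 in the erythroid-like class of CMP and LMPP.

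Over the 7 CMP clusters large enough to compare, the genes most like Cox6a2 in the log2 of CPM plus 1 included Zfp422 (Pearson r 0.986), Slc38a7 (0.985), Itpr1 (0.981) and Zdhhc8 (0.978) among 13602 genes. The 7 clusters share 1 library, and with so few points these values only describe. Zfp422, for example, had 156 CPM in the B cell-like cluster and 73.3 in the erythroid-like cluster.

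Cox4i2 in CMP was likewise highest in monocyte-like cells (13.2, from 46 UMIs), then in lymphoid-primed-like (7.21) and erythroid-like cells (2.27), with 1.24 in B cell-like cells. In LMPP it stood at 4.89 in the stem and multipotent-like class. Cox4i1 exceeded it by far in each library, and Cox4i2 made up 0.279% to 0.490% of the pair. Cox6b2, known as the testis form of subunit 6b, was abundant for an alternative form, at 16.4% of the pair with Cox6b1 in CMP, 12.9% in LMPP and 10.7%, 10.7% and 11.4% in GMP. It was highest in erythroid-like cells (177 in CMP, 200 in LMPP), with 144 in basophil and mast cell-like, 104 in lymphoid-primed-like, 83.2 in monocyte-like and 55.6 in B cell-like cells of CMP. Thinned to 2000 UMIs, 30% of CMP erythroid-like cells (28.0% to 32.1%) and 9.79% of CMP B cell-like cells (7.28% to 12.8%) had a Cox6b2 UMI. The order of classes was thus the reverse of that of Cox6a2 between these 2 classes. Within GMP, Cox6b2 had 157 ± 15.8 in basophil and mast cell-like, 129 ± 15.4 in eosinophil-like, 124 ± 7.66 in granulo-monocytic-like and 95.1 ± 6.17 in monocyte-like cells (SD, n = 3 each). Unlike most members it was not lower in the basophil and mast cell-like than in the granulo-monocytic-like class, and the difference between them missed the threshold.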

How the data were processed

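The deposited files hold raw UMI counts per gene and cell barcode, 1 matrix per library. The submitters' processing notes name Cell Ranger 3.1.0, Seurat 3.1.1 and mm10, whereas the file headers name Cell Ranger 6.1.1; how barcodes were kept and how multi-mapping or antisense reads were counted is not given in the sources used here. The 84 genes, the gene lists and the tests were chosen with earlier results of these data known.

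Cells with at least 500 genes, at least 1000 UMIs and at most 10% mitochondrial UMIs were kept. Doublets were called against simulated doublets at 0.8% per 1000 barcodes. Cells were scaled to 10000 UMIs and clustered (scanpy 1.11.5, Leiden resolution 1, 2000 variable genes, 30 components, 20 neighbours) without the members. A cluster was named where at least 3 markers of a class were raised 1.5-fold at 20 CPM or more. Also, a marker had to be among its 10 leading genes, or at least 2 of every 3 detected markers raised. Shallow clusters needed a leading marker. The name with most leading markers was taken. The lymphoid-primed-like cluster had 5 raised markers and none among its leading genes. Class names were rebuilt from markers and are not the authors' annotation. UMIs were summed per library, or per library and class, and tested in edgeR 4.0.16 (R 4.3.3; TMM, quasi-likelihood, adjusted p under 0.05). DESeq2 1.42.0 was an alternative. The genes named are, per complex, the 2 of highest mean level over all libraries and the 2 of largest change past the threshold, every complex II gene, those called against the majority and the alternative complex IV forms with their partners; between classes and against LMPP, the 3 largest changes each way. Other genes, such as those that did not pass, are named after their values were seen. Intervals are exact binomial (Clopper-Pearson) at 95% and cover counting error only. The procedures were tested on simulated data. There, GMP against CMP and GMP against LMPP each recovered 50% of 2-fold and 4% of 1.5-fold changes, and the shared class 21% and 3%. Genes that did not pass in these fits can therefore still differ. Recovery of 1.5-fold changes within GMP was 98% for monocyte-like, 71% for basophil and mast cell-like and 45% for eosinophil-like cells.

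The GMP libraries carry replicate numbers, and classes of one library share its cells' preparation, so the library was a block in tests between GMP classes. No genome sequence beyond the RefSeq promoter windows was printed. Some genes that these rules would name are not reported here.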

Additional observations from a re-analysis of the deposited data

How the results depend on the processing

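Scaling by total UMIs, which moves the median of all genes by more than 0.1 on the log2 scale in most comparisons, left 32 members higher in GMP than in CMP, 3 lower than in LMPP, and 12 at least 1.5-fold higher in CMP than in LMPP. Within GMP it gave 15 higher and 18 lower in monocyte-like, 3 higher in basophil and mast cell-like and 8 higher in eosinophil-like cells. Cells of 5000 to 10000 UMIs gave 29 higher in GMP than in CMP and 3 higher in monocyte-like cells, and too few eosinophil-like cells for a value. The single gene lower in GMP than in LMPP became 0 with DESeq2 size factors, the DESeq2 test, only those 2 groups, all barcodes or doublets kept. The single gene lower in CMP than in LMPP became 0 with all barcodes or doublets kept. Without the replicate block 1 member was higher and 6 lower in monocyte-like cells, and the block changed no other count by over 1.5 times. No paired analysis was possible for GMP against CMP or LMPP because these have 1 library each. In monocyte-like cells 28 were lower at Leiden resolution 0.5 and 9 with cycle genes left out of the clustering; 1 was higher in basophil and mast cell-like cells with DESeq2 size factors, cycle genes left out, doublets kept or the cluster mostly of GMP replicate 1 left out, and 2 in eosinophil-like cells at resolution 2. In the shared monocyte-like class 1 was higher without a low-count filter, where the members' median less that of all genes reversed to -0.21, and 6 in the basophil and mast cell-like class. Leaving out each GMP library gave 39 to 68 higher than CMP, 0 to 2 lower than LMPP, 4 to 7 higher in monocyte-like, 0 to 1 higher in basophil and mast cell-like cells, and 0 to 7 higher and 0 to 1 lower in the shared class. As a mean over cells, complex II took 0.0305% in LMPP, 0.0423% in CMP and 0.0430% in GMP, so CMP no longer stood above GMP. CMP classes moved to 2.54% (B cell-like) and 2.53% (basophil and mast cell-like) at resolution 0.5, and to 2.56% (basophil and mast cell-like), 2.66% (erythroid-like), 2.81% (lymphoid-primed-like) and 3.52% (monocyte-like) at resolution 2. Thinned to 1000 and 4000 UMIs, Cox6a2 was seen in 18.6% and 41.6% of CMP and 6.39% and 22.5% of LMPP B cell-like cells, and Cox6b2 in 15.2% and 47.8% of CMP erythroid-like cells. The cause of these changes was not tested. Apart from those given above, shares of all genes under each alternative are not given here, so these counts of members have no base to be read against. Among the further values under alternatives, 605 kept their direction and side of the threshold or stayed within their spread, 29 lost the call, 7 gained it, 20 moved and 1, the median given above, reversed.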
